A study of Mus musculus with 8 samples.

Results

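Tcim and 9 regulators of the Wnt pathway were followed in the hearts of diabetic db/db mice that received DIZE or its vehicle. These 10 genes are a small subset of the 55487 annotated genes in the count table, and all 10 had enough reads to be among the 13648 genes tested. Tcim was selected on its measured level, which was lower with DIZE than with vehicle in these libraries, and the other 9 because of their place in the pathway: Cby1, Ctnnb1, Axin2, Tcf7l2, Sfrp1, Fzd4, Lrp6, Gsk3b and Apc. Of the 8 libraries of heart RNA, 4 come from the vehicle group and 4 from the DIZE group. All mice were db/db, and DIZE is taken here as the antiprotozoal drug diminazene aceturate. Both groups carry the db mutation of the leptin receptor, which leads to obesity and type 2 diabetes, and no library from mice without that mutation was analysed here. Age, sex, dose and duration were not given in the sources used here. These do not state either that libraries are separate animals, so the errors and p-values given cover only the spread among these samples, which may be technical.

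In the canonical Wnt pathway, beta-catenin is held down by a destruction complex built on Axin and APC, in which casein kinase 1 and GSK3 phosphorylate it and mark it for degradation. A Wnt ligand bound to a Frizzled receptor and LRP5 or LRP6 recruits Dishevelled and Axin to the membrane, beta-catenin accumulates, enters the nucleus and activates genes together with TCF/LEF factors. Tcim encodes a small protein that binds Chibby, an inhibitor of beta-catenin encoded by Cby1, and thereby relieves that inhibition. Canonical Wnt activity is high in the developing heart, low in the healthy adult heart and is known to return after cardiac injury.

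Total counts ranged from 7447664 to 10161623 per library. Cardiomyocyte markers were at least 27960 CPM (read counts scaled to library size) in sum in every library, and all 7 were detected in all 8 libraries. Some libraries stood apart. Vehicle 1 had the lowest cardiomyocyte sum (27960 CPM, against 34850 to 41010 CPM in the other 7), the highest sums of fibroblast markers (2565 CPM, against 1129 to 1579 CPM), macrophage markers (547.2 CPM, against 285.0 to 362.3 CPM) and atrial markers (900.4 CPM, against 12.81 to 318.1 CPM), and levels that fell with the GC content of the gene (Spearman's rho -0.47 across genes, against -0.11 to 0.40 in the others). Erythroid marker sums did not overlap between the groups (102.7 to 218.7 CPM with vehicle and 8.46 to 79.1 CPM with DIZE). The part of these differences in the results below was not tested, and in bulk RNA fewer cells of a type and less RNA per cell cannot be told apart.

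Tcim was 1.99-fold less abundant with DIZE. Its levels were 109.2, 73.6, 83.4 and 88.5 CPM across vehicle 1 to 4, against 48.0, 46.0, 43.5 and 40.9 CPM in DIZE 1 to 4. The scaling used TMM factors, which correct for differences in composition. The highest DIZE library lay below the lowest vehicle library, and the DIZE libraries lay closer together, with a coefficient of variation of 6.96% against 16.9% with vehicle. The group means were 88.671 ± 14.999 and 44.6 ± 3.10 CPM (SD, n = 4 each), with a log2 fold change of -0.99 ± 0.13 (SE). These values rest on 350 to 1064 reads per library. Tcim was chosen for this difference, so it is given as a description without a test. Over all genes, 5 passed an adjusted p of 0.05 in edgeR's quasi-likelihood test (0.0366% of the genes tested), 3 of them higher (0.022%) and 2 lower in DIZE (0.0147%). The groups did not overlap for 12.4% of genes, with DIZE higher for 7.17% and lower for 5.26%. Among the 9309 genes with a mean of at least 10 CPM, 84, Tcim included, were lower by as much as Tcim.

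Tcim (ENSMUSG00000056313) is a gene of a single exon of 1805 bases on the minus strand of chromosome 8, from 24437180 to 24438984 on GRCm38 (mm10). Its exon overlaps that of Gm26714 on the other strand by 337 bases, and Gm26714 had a mean of 0.279 CPM. The part of reads from the other strand in the Tcim count was not tested. Tcim has a GC content of 43.3%, and the 1187 tested genes within 1 percentage point of that GC content had a median log2 fold change of -0.13. After removal of a GC and length trend fitted in each library, Tcim had log2 -0.77 ± 0.10 SE, or 1.70-fold, and its groups still did not overlap (DIZE was lower without overlap for 4.23% of genes on that scale). Leaving out each library in turn moved the value between -1.07 and -0.88, and it was -0.88 without vehicle 1.

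Of the 7 other tested genes within 1 Mb, 5 lay lower and 2 higher, none passed the threshold by edgeR and none had groups without overlap. Their median log2 fold change was -0.05. The lowest was Htra4, a serine protease gene 585.9 kb away, with means of 5.57 and 3.39 CPM (log2 -0.72 ± 0.27 SE, edgeR adjusted p = 0.182). On the side of higher coordinates, the nearest tested gene was Adam9, a membrane metalloprotease gene 510.6 kb away, at 102.4 CPM on average with vehicle and 99.9 CPM with DIZE (log2 -0.04 ± 0.11 SE). Sfrp1, itself one of the Wnt regulators followed here, ends 987.5 kb away on the other side and is described below. This window was chosen after the values of Tcim were known.

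Several genes tracked Tcim closely across the 8 libraries. Since Tcim was chosen for being lower with DIZE, its closest genes by this measure lie lower with DIZE by construction. The 5 closest were Tardbp, an RNA-binding protein gene (Pearson r = 0.982 of log2(CPM + 1)), the potassium channel gene Kcnt2 (0.981), the deubiquitinase gene Usp37 (0.977), the Rab GTPase-activating protein gene Tbc1d8b (0.974) and Samd9l (0.974). With the group means removed, r was 0.894 to 0.964 for these 5. They were picked by r over the same libraries, so this is no separate support for a shared pattern. Vehicle 1 was highest for each of the 5, as it was for Tcim. All of them are poor in GC, between 36.6% and 43.1%. Their sizes differed, from log2 -0.22 for Tardbp to -1.28 for Samd9l, which ranged from 57.98 CPM in vehicle 1 down to 13.75 CPM in DIZE 4. Among the other Wnt regulators with at least 5 CPM on average, r with Tcim was highest for Fzd4 (0.861) and lowest for Tcf7l2 (-0.693). With the group means removed, r was 0.879 for Ctnnb1, 0.578 for Cby1, 0.378 for Sfrp1, 0.167 for Lrp6 and 0.13 for Fzd4. It was -0.03 for Apc, -0.505 for Gsk3b and -0.833 for Tcf7l2. Vehicle 1, highest for Tcim, was also highest for Ctnnb1 and was lowest for Tcf7l2. The r values share libraries and their composition and are given as descriptions.

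**Figure D1:**
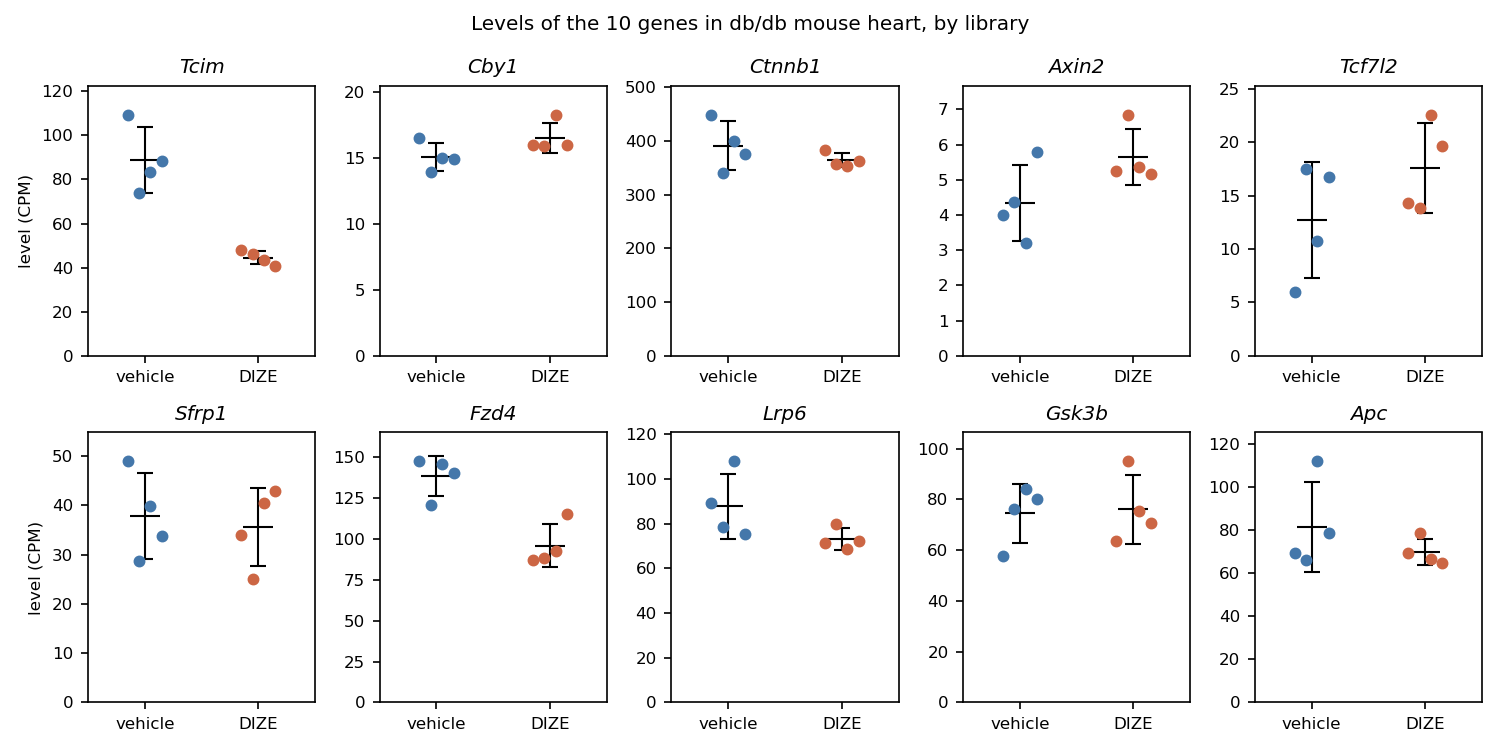
Level of each of the 10 genes in CPM (linear axes from 0) in the 4 vehicle and 4 DIZE libraries. Points are libraries, and bars are the mean and SD of the group. For Tcim and Fzd4 each DIZE point lay below each vehicle point, and for the other 8 genes the groups overlapped.

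The other 9 regulators did not pass the test. In edgeR, with p-values adjusted over all genes by Benjamini-Hochberg, 0 of 9 changed at an adjusted p under 0.05 (0.0366% of all genes did), 1 had an unadjusted p under 0.05 (19.4% of all genes did), and adjusted p ranged from 0.0935 to 0.935. DESeq2 called 1 of the 9, Fzd4 (4.45% of all genes), and limma-voom called 0. Of the 9, 4 lay higher and 5 lower in DIZE, with a median log2 fold change of -0.08 against -0.01 over all genes tested. The groups did not overlap for 1 of the 9, again Fzd4, against 12.4% of all genes.

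Cby1, which encodes Chibby, the partner that TCIM binds, was similar in both groups. Its levels were 16.52, 13.98, 15.02 and 14.91 CPM across vehicle 1 to 4, against 15.99, 15.92, 18.29 and 15.99 CPM in DIZE 1 to 4. The groups overlapped, and the highest library was DIZE 3. The means were 15.1 ± 1.05 and 16.5 ± 1.16 CPM (log2 0.13 ± 0.12 SE, edgeR adjusted p = 0.578). Chibby also works at the base of cilia, and Fam92a, now named Cibar1, which encodes a partner of Chibby there, had 25.7 ± 4.09 and 22.1 ± 1.45 CPM (log2 -0.22 ± 0.14, adjusted p = 0.393, and -0.11 without vehicle 1). The 14-3-3 protein gene Ywhae, of a family that helps Chibby carry beta-catenin out of the nucleus, had 405.7 ± 30.6 and 446.5 ± 6.69 CPM (log2 0.14 ± 0.10, adjusted p = 0.455, and 0.28 with the GC and length trend removed). The related Chibby genes Cby2 and Cby3 had 0 and 2 reads in all 8 libraries together.

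Ctnnb1, which encodes beta-catenin itself, was the most abundant of the 10 and differed little. It had 448.5, 340.5, 400.1 and 375.0 CPM across vehicle 1 to 4, against 382.7, 356.8, 354.0 and 362.1 CPM in DIZE 1 to 4. Vehicle 1 was highest and vehicle 2 lowest, so that the DIZE libraries lay within the range of the vehicle libraries. The means were 391.0 ± 45.5 and 363.9 ± 13.0 CPM (log2 -0.10 ± 0.11, edgeR adjusted p = 0.628). RNA levels do not measure the amount of beta-catenin protein, which the pathway sets by degradation. Jup, which encodes plakoglobin, a relative of beta-catenin in desmosomes, lay higher in all 4 DIZE libraries (366.3 to 522.9 CPM) than in all 4 vehicle libraries (104.4 to 339.0 CPM) without passing (log2 0.69 ± 0.32, edgeR adjusted p = 0.274). The low vehicle value of Jup was vehicle 1, without which log2 was 0.41.

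Among the regulators other than Tcim, only Fzd4 had groups that did not overlap, as was so for 12.4% of all genes. Fzd4 encodes a Frizzled receptor for Wnt ligands and for Norrin and is known for its part in vessel growth. Its levels were 147.4, 120.6, 145.6 and 140.1 CPM across vehicle 1 to 4, against 87.0, 88.4, 92.4 and 115.1 CPM in DIZE 1 to 4. The groups did not overlap, DIZE 4 being closest to the vehicle libraries. The means were 138.4 ± 12.3 and 95.7 ± 13.1 CPM, 1.45-fold lower in DIZE (log2 -0.53 ± 0.12 SE), which missed the threshold (edgeR adjusted p = 0.0935). DESeq2 called it (log2 -0.53, adjusted p = 0.00537, where 2.52% of genes were called lower), and edgeR without a filter on low counts gave adjusted p = 0.0439 (1.37% of genes called). Over all alternatives the adjusted p of Fzd4 ranged from 0.00537 to 0.266 and log2 stayed between -0.63 and -0.45, with -0.45 ± 0.11 when the GC and length trend was removed and groups that still did not overlap. Endothelial markers lay lower in 7 of 8 genes, with sums of 1041 to 1573 CPM in vehicle and 920 to 1303 CPM in DIZE. These sums overlapped, since DIZE 3 (1257 CPM) and DIZE 4 (1303 CPM) lay above vehicle 2 (1041 CPM) and vehicle 4 (1108 CPM). Other marker lists also lay mostly lower: 6 of 7 tested genes for fibroblasts, 5 of 6 for macrophages, 4 of 6 for mural and 3 of 5 for mesothelial cells. The same held for 4 of 4 atrial, 5 of 5 erythroid and 1 of 1 adipocyte markers, whereas 6 of 7 cardiomyocyte markers lay higher. The part of endothelial RNA, or of RNA of these other cells, in the difference of Fzd4 was not tested.

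Fzd4 lies on chromosome 7 from 89404355 to 89413134 on the plus strand. Its promoter sequence is shown because Fzd4 was the regulator other than Tcim whose groups did not overlap. Those of Axin2, a target of the pathway, and of a second start of Tcf7l2, a factor of the pathway, are shown for comparison. The sequences are from RefSeq on GRCm38.p6, 250 bases before to 50 after the annotated start, 5′ to 3′ on the strand of the gene. The positions are chr7:89404116-89404415 for Fzd4, chr11:108920099-108920398 for Axin2 and chr19:55895071-55895370 for Tcf7l2, all on the plus strand. Capitals mark a match to the core letters that TCF/LEF factors bind.
Fzd4: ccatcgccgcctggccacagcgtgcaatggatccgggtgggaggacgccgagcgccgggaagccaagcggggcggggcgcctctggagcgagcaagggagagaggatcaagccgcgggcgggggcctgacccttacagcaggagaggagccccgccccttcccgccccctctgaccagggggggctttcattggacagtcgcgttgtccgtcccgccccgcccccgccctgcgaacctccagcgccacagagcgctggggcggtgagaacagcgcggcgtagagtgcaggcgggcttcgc
Axin2: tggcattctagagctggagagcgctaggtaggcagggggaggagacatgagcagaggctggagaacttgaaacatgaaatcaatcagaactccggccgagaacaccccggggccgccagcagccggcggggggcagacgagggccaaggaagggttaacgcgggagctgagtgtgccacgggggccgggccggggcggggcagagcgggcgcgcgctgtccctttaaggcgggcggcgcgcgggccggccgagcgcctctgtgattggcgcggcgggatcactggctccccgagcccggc
Tcf7l2: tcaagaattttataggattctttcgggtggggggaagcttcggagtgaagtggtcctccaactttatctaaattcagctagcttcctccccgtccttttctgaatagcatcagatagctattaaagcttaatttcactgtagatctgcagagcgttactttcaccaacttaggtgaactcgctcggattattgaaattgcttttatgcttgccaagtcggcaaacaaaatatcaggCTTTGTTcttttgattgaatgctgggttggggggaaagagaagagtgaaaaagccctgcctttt
The letters searched were CTTTGAA and CTTTGAT, with CTTTGTA and also CTTTGTT, on both strands, which share their first 5 letters. Of 8 promoter entries for 6 of the 10 genes (Cby1, Ctnnb1, Axin2, Tcf7l2, Fzd4 and Gsk3b), 1 held a match, at the second start of Tcf7l2, 14 bases before the start. Of all 32851 promoter entries, 16.9% held at least 1. The entry of Fzd4 has a GC content of 72.7%, and that of the second Tcf7l2 start one of 42.0%. Tcim, Sfrp1, Lrp6 and Apc had no entry. A match is a description of letters and not a bound site, and no match says only that these letters are not in this window.

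Lrp6, the co-receptor that works beside Frizzled, lay lower without passing. It had 89.4, 78.4, 107.9 and 75.5 CPM across vehicle 1 to 4, against 71.4, 80.0, 68.8 and 72.5 CPM in DIZE 1 to 4. The groups overlapped through DIZE 2, and vehicle 3 was highest. The means were 87.8 ± 14.7 and 73.2 ± 4.80 CPM (log2 -0.26 ± 0.13, edgeR adjusted p = 0.293). With the GC and length trend removed log2 was -0.07 ± 0.11, and without vehicle 3 it was -0.15.

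The remaining receptors of the list lay mostly in the other direction from Fzd4 and Lrp6. Of 19 further receptor genes, 16 were tested, and 15 lay higher and 1 lower in DIZE. Of all 13648 genes tested, 6577 lay higher and 7071 lower. The median log2 fold change of the 16 receptor genes was 0.35 against -0.01 over all genes. None passed by edgeR, and 8 of the 16 had an unadjusted p under 0.05 (19.4% of all genes did). DESeq2 called 1, Fzd5, where 1.93% of all genes were called higher (log2 0.89, adjusted p = 0.0468), and limma-voom called none of them. Lrp5, the close relative of Lrp6, had 44.6, 83.9, 99.8 and 86.3 CPM across vehicle 1 to 4, against 125.0, 106.8, 129.3 and 130.2 CPM in DIZE 1 to 4. The Lrp5 groups did not overlap (log2 0.64 ± 0.21, edgeR adjusted p = 0.146, and 0.45 without vehicle 1). Fzd5, another Frizzled gene, averaged 4.97 ± 1.96 and 9.17 ± 0.71 CPM (log2 0.89 ± 0.27, edgeR adjusted p = 0.138, and 0.65 without vehicle 1). Ptk7, a Wnt co-receptor of planar polarity, had 5.21 ± 0.70 and 8.01 ± 1.09 CPM (log2 0.63 ± 0.18, adjusted p = 0.126, and 0.36 with the GC and length trend removed). The 1 lower gene was Fzd6, with log2 -0.07 ± 0.12. With the GC and length trend removed, 14 of the 16 lay higher (median 0.37), and with single libraries left out 13 to 16 did. With the replicate block and that trend removed together, 13 of the 16 did (median 0.26).

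Within the Frizzled family the share of Fzd4 was smaller with DIZE. Shares were computed from reads per exon length, so that genes of different lengths can be set side by side. Of the 10 Frizzled genes together, Fzd4 made up 58.5, 50.9, 55.5 and 55.2% across vehicle 1 to 4, against 40.6, 40.3, 39.8 and 46.6% in DIZE 1 to 4. Every DIZE library had a lower share than every vehicle library, with means of 55.0 ± 3.14% and 41.8 ± 3.21%. Of Lrp5 and Lrp6 together, Lrp6 made up 38.4 to 58.8% in vehicle and 27.5 to 34.8% in DIZE, again without overlap. Lrp6 has a GC content of 46.0% and Lrp5 one of 54.7%, and the share in vehicle 1, the library with the steepest GC trend, was the highest (58.8%). Fzd4 has a GC content of 47.0%. Among the Frizzled genes only Fzd3 is poorer in GC (40.3%), Fzd6 is close (47.4%), and the others lie between 51.7% and 62.2%. The part of the GC trend in either share was not tested. Over the 8 libraries Fzd4 was the most abundant Frizzled gene per length (17.4 CPM per kb), followed by Fzd6 (6.14 CPM per kb). These shares were examined after the values of Fzd4 were seen and carry no test.

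**Figure D2:**
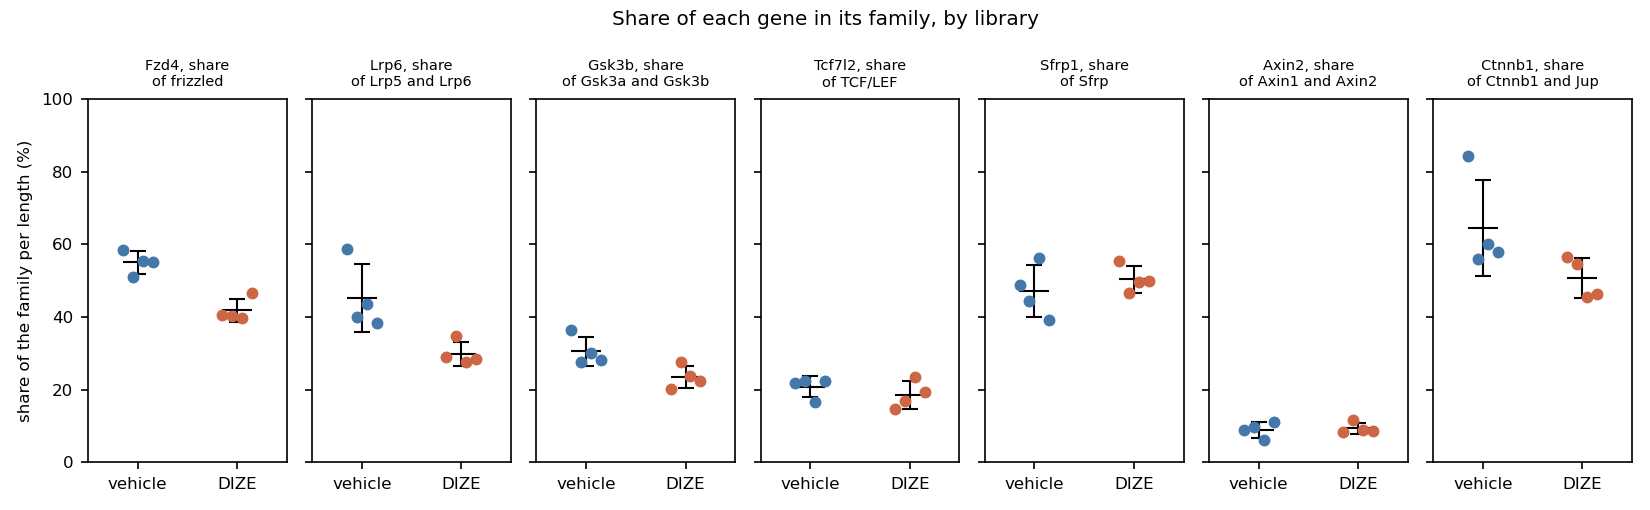
Share of 7 of the genes in the summed level of their family, per exon length, in percent, in each vehicle and DIZE library (points) with mean and SD (bars). For Fzd4 and Lrp6 the 4 DIZE shares lay below the 4 vehicle shares, and for the other 5 genes the groups overlapped.

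Sfrp1, a secreted protein gene whose product binds Wnt ligands, did not differ beyond its spread. It had 48.9, 28.7, 39.96 and 33.8 CPM across vehicle 1 to 4, against 34.1, 25.1, 40.4 and 43.0 CPM in DIZE 1 to 4. The ranges overlapped, vehicle 1 being highest and DIZE 2 lowest. The means were 37.9 ± 8.70 and 35.7 ± 7.96 CPM (log2 -0.08 ± 0.20, edgeR adjusted p = 0.843), and the sign turned without vehicle 1 (0.065) or DIZE 2 (0.050). Sfrp1 made up 47.2 ± 7.11% of the Sfrp family per length in vehicle (Sfrp1, Sfrp2, Sfrp4, Sfrp5 and Frzb) and 50.4 ± 3.72% in DIZE. Of 16 further secreted antagonists and their receptors 8 were tested, 3 higher and 5 lower, and none passed by edgeR (3 with unadjusted p under 0.05, against 19.4% of all genes, and 0 by DESeq2). Their median log2 fold change was -0.17, and -0.055 with 4 higher and 4 lower without vehicle 1. Dkk3, of the Dickkopf family, had 139.1, 31.9, 10.6 and 68.9 CPM across vehicle 1 to 4, against 12.3, 8.55, 20.6 and 25.2 CPM in DIZE 1 to 4. Within each group the libraries fell in the same order by Dkk3 as by the summed atrial markers Myl7, Sln, Myl4 and Nppa, which were 900.4, 83.7, 35.3 and 318.1 CPM in vehicle and 23.4, 12.8, 66.2 and 131.7 CPM in DIZE. The part of atrial tissue in the difference of Dkk3 (log2 -1.90 ± 0.76, edgeR adjusted p = 0.236, and -1.15 without vehicle 1) was not tested. Kremen1, a receptor of Dickkopf proteins, had log2 0.43 ± 0.19 (adjusted p = 0.253, and 0.24 without vehicle 1, which had 97.0 CPM against 170.1 to 204.2 CPM in vehicle 2 to 4). Sost, the sclerostin gene, was at 0.63 ± 0.42 and 2.29 ± 1.35 CPM, a level of few reads (log2 1.83 ± 0.59, edgeR adjusted p = 0.151). Its groups overlapped through DIZE 2 (0.39 CPM).

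Ligand RNA was scarce. Of 25 genes of Wnt ligands, their secretion and R-spondins, 17 had too few reads to be tested, among them Wnt1, Wnt3a, Wnt7b and Wnt10a with at most 2 reads in all libraries together. Of the 8 tested, 7 lay higher and 1 lower, none passed by edgeR (2 with unadjusted p under 0.05, against 19.4% of all genes), and the median log2 fold change was 0.20. That direction depended on the setting: 5 of 8 lay higher with the GC and length trend removed (median 0.11), 5 of 9 without DIZE 4 (0.036), 3 of 8 with the replicate block and that trend removed together (-0.019), and 8 of 21 without a filter on low counts (-0.32). DESeq2 called 1 of the 8, Wnt9a (4.45% of all genes). Wnt9a had 10.3, 10.1, 10.6 and 8.53 CPM across vehicle 1 to 4, against 13.7, 13.8, 15.7 and 14.7 CPM in DIZE 1 to 4. The Wnt9a groups did not overlap (log2 0.55 ± 0.13, edgeR adjusted p = 0.0989, DESeq2 adjusted p = 0.0236, and log2 0.35 with the GC and length trend removed). Wnt5a, a ligand known mostly for signalling without beta-catenin, had 16.1 ± 2.58 and 21.0 ± 2.36 CPM (log2 0.39 ± 0.15, edgeR adjusted p = 0.195). Wls, the carrier that brings Wnt proteins to the cell surface, had 88.9 ± 15.1 and 105.7 ± 10.5 CPM (log2 0.25 ± 0.14, adjusted p = 0.349, 0.14 to 0.31 with single libraries left out, and 0.43 with the GC and length trend removed).

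The destruction complex was represented by Gsk3b, Apc and Axin2. Gsk3b encodes a kinase that also restrains glycogen synthase. It had 57.8, 76.3, 84.1 and 80.0 CPM across vehicle 1 to 4, against 63.5, 95.0, 75.3 and 70.7 CPM in DIZE 1 to 4. The means were nearly equal, 74.6 ± 11.6 and 76.1 ± 13.5 CPM (log2 0.03 ± 0.15, edgeR adjusted p = 0.935), and the sign turned with the scaling to library totals (-0.033) and without vehicle 1 (-0.076) or DIZE 2 (-0.093). Its relative Gsk3a, chosen after its values were seen, had 51.6 ± 14.6 and 72.7 ± 1.30 CPM (log2 0.50 ± 0.19, and 0.30 without vehicle 1).

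Apc encodes the large scaffold whose loss activates the pathway in tumours. It had 69.5, 66.3, 112.0 and 78.6 CPM across vehicle 1 to 4, against 69.5, 78.7, 66.5 and 64.8 CPM in DIZE 1 to 4. Vehicle 3 alone lay far above the rest, and the groups overlapped. The means were 81.6 ± 20.9 and 69.8 ± 6.20 CPM (log2 -0.22 ± 0.16, edgeR adjusted p = 0.471). Without vehicle 3 log2 was -0.034, and with the GC and length trend removed it was 0.022 ± 0.12.

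Axin2 encodes a scaffold of the same complex and is also a direct target of beta-catenin, so its RNA is widely used as a readout of canonical Wnt activity. It had 4.00, 4.36, 3.22 and 5.79 CPM across vehicle 1 to 4, against 5.25, 6.84, 5.36 and 5.17 CPM in DIZE 1 to 4. Vehicle 4 lay among the DIZE libraries and the other 3 vehicle libraries below them. The means were 4.34 ± 1.08 and 5.65 ± 0.80 CPM (log2 0.37 ± 0.22, edgeR adjusted p = 0.372), and removing the GC and length trend gave 0.21 ± 0.22. These values rest on 24 to 59 reads of Axin2 per library, and the part of counting error in their spread was not tested.

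Of 25 further genes of the destruction complex and its regulators, all were tested, 15 lay higher and 10 lower, and none passed by edgeR (8 with unadjusted p under 0.05, against 19.4% of all genes). Their median log2 fold change was 0.098, and 0.047 without vehicle 1. DESeq2 called 1 of the 25 (4.45% of all genes), Usp34, a deubiquitinase gene that acts on Axin. Usp34 had 91.1, 53.2, 96.0 and 69.3 CPM across vehicle 1 to 4, against 46.9, 51.4, 38.0 and 36.9 CPM in DIZE 1 to 4. Usp34 was lower in each DIZE library than in any vehicle library (log2 -0.84 ± 0.19, edgeR adjusted p = 0.0888, DESeq2 adjusted p = 0.00536). Usp34 overlaps the exons of Ahsa2 on the other strand, which had 17.0 CPM on average, so its reads are uncertain where strand was not used in counting. With the GC and length trend removed its log2 was -0.55. Tnks2, a tankyrase gene that promotes Axin turnover, had 134.5 ± 8.37 and 103.6 ± 15.6 CPM (log2 -0.38 ± 0.12, edgeR adjusted p = 0.155, and -0.21 with that trend removed). Csnk1e, a casein kinase gene, had 61.3 ± 5.91 and 77.7 ± 5.70 CPM (log2 0.34 ± 0.11, adjusted p = 0.154, and 0.17 with that trend removed).

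Tcf7l2, which encodes a DNA-binding partner of beta-catenin and is known as a type 2 diabetes gene, varied the most among libraries. It had 5.95, 17.4, 10.7 and 16.8 CPM across vehicle 1 to 4, against 14.3, 13.8, 22.5 and 19.6 CPM in DIZE 1 to 4. Vehicle 1 was lowest and DIZE 3 highest, and the groups overlapped. The coefficient of variation was 42.7% in vehicle and 24.1% in DIZE, and the means were 12.7 ± 5.43 and 17.6 ± 4.23 CPM (log2 0.47 ± 0.30, edgeR adjusted p = 0.408). Without vehicle 1 the log2 value was 0.23. Per exon length Tcf7l1 was the most abundant TCF/LEF gene (5.82 CPM per kb, against 1.73 for Tcf7l2 and 1.31 for Tcf7), and Lef1 had 3 reads in all libraries together.

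Of 22 further nuclear factors 21 were tested, 13 lay higher and 8 lower, and none passed by edgeR (5 with unadjusted p under 0.05, against 19.4% of all genes). The median log2 fold change was 0.13, and 0.024 with 11 higher without vehicle 1. DESeq2 called 1 of the 21 (4.45% of all genes), the corepressor gene Ctbp1, with 155.9 to 166.0 CPM across the vehicle libraries against 183.2 to 220.5 CPM with DIZE and no overlap (log2 0.30 ± 0.10, edgeR adjusted p = 0.157, DESeq2 adjusted p = 0.0338). Its log2 value was 0.08 with the GC and length trend removed. Smarca4, the ATPase of a chromatin remodelling complex, had 43.6 CPM in vehicle 1, 86.6 to 93.9 CPM in vehicle 2 to 4 and 114.9 to 121.0 CPM with DIZE throughout (log2 0.58 ± 0.20, edgeR adjusted p = 0.170, and 0.38 without vehicle 1). Bcl9, a coactivator of beta-catenin, had 44.2 ± 10.04 and 61.7 ± 7.56 CPM (log2 0.48 ± 0.17, edgeR adjusted p = 0.175, and 0.33 without vehicle 1).

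Target genes of the pathway lay in both directions. Of 19 targets other than Axin2, 12 were tested, 8 lay higher and 4 lower, none passed by edgeR (3 with unadjusted p under 0.05, against 19.4% of all genes), and the median log2 fold change was 0.20. It was 0.033, with 6 higher and 6 lower, without DIZE 2, and 0.062 by limma-voom. DESeq2 called 3 of the 12 (4.45% of all genes), Myc and Sox4 higher and Ccnd1 lower. The proto-oncogene Myc had 4.31, 7.18, 7.11 and 5.49 CPM across vehicle 1 to 4, against 11.6, 7.76, 15.3 and 12.0 CPM in DIZE 1 to 4. The Myc groups did not overlap, DIZE 2 being close to the highest vehicle libraries (log2 0.97 ± 0.23, edgeR adjusted p = 0.0989, DESeq2 adjusted p = 0.0114). Ccnd1, which encodes cyclin D1, went the other way, with 32.5 ± 8.63 and 20.1 ± 2.61 CPM (log2 -0.69 ± 0.19, edgeR adjusted p = 0.118, DESeq2 adjusted p = 0.0315). Its exons overlap LTO1 on the other strand, which had 19.97 CPM on average, so its reads are uncertain where strand was not used. The transcription factor gene Sox4, with exons that share bases with Gm26735 on the other strand, had 23.1 ± 8.12 and 50.3 ± 19.9 CPM (log2 1.13 ± 0.32, edgeR adjusted p = 0.128, DESeq2 adjusted p = 0.0199).

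Planar polarity genes, which work through Frizzled and Dishevelled without beta-catenin, gave 9 higher and 4 lower among 13 tested, and none passed by edgeR (4 with unadjusted p under 0.05, against 19.4% of all genes, and 0 by DESeq2). Their median log2 fold change was 0.20, and without vehicle 1 it was -0.0050, with 6 higher and 7 lower. Invs, the inversin gene, averaged 6.06 ± 1.68 and 3.61 ± 0.47 CPM (log2 -0.74 ± 0.24, edgeR adjusted p = 0.144) and overlaps Tex10 on the other strand. Prickle2 had 13.1 ± 2.42 and 8.96 ± 1.10 CPM (log2 -0.54 ± 0.17, adjusted p = 0.149). Scrib, a cell polarity scaffold gene, had 36.5 ± 9.96 and 50.7 ± 4.99 CPM (log2 0.47 ± 0.19, adjusted p = 0.211, and 0.30 without vehicle 1).

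Over all lists together, 140 further Wnt genes were looked up and 105 were tested. Of these 71 lay higher and 34 lower, against 6577 higher and 7071 lower of all genes tested. The median log2 fold change of the 105 was 0.13 against -0.01 over all genes, and the groups did not overlap for 19.0% against 12.4%. None passed by edgeR, 33 of the 105 had an unadjusted p under 0.05 (19.4% of all genes did), DESeq2 called 7, 5 higher and 2 lower (4.45% of all genes), and limma-voom called 0. The tested Wnt genes had a median GC content of 53.2% against 49.6% over all genes tested, and with the GC and length trend removed the median was 0.08 with 69 higher, against 0.027 over all genes. Without vehicle 1 the median was 0.08 and 64 lay higher.

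**Figure D3:**
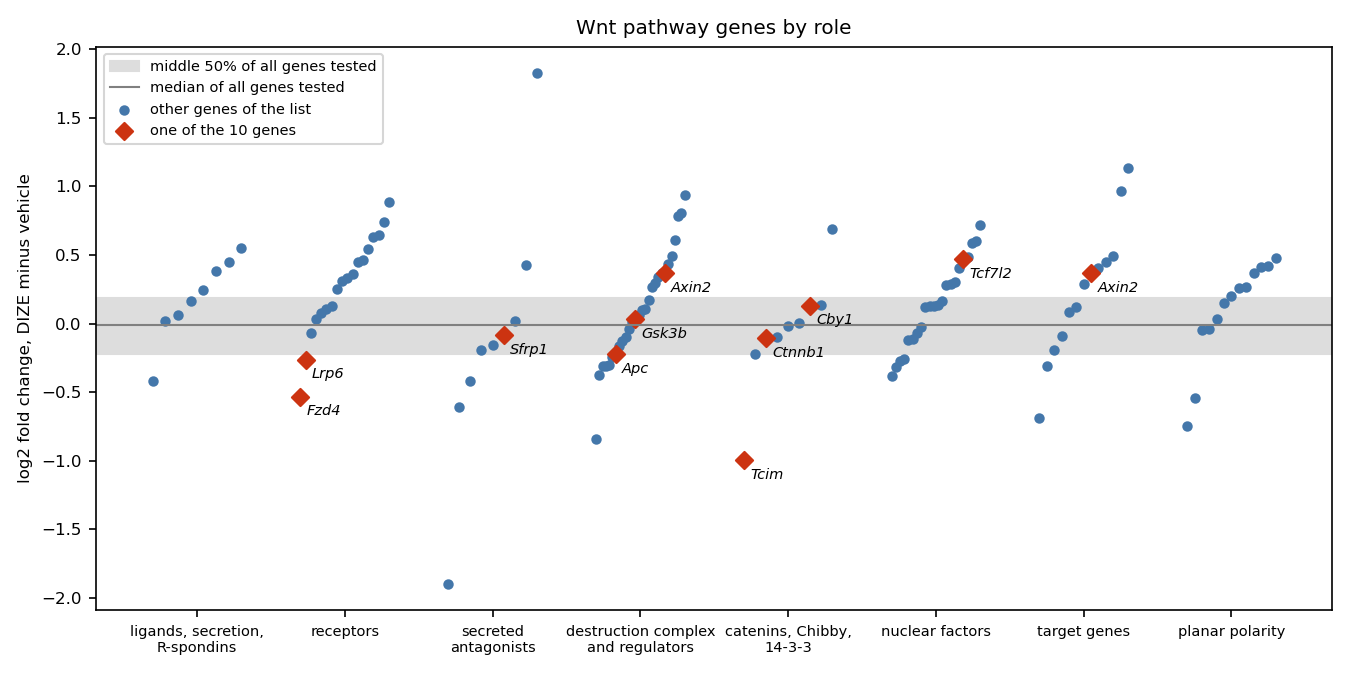
Log2 fold change (DIZE minus vehicle) of the tested genes of each Wnt list, sorted from low to high within the list. Red diamonds are the 10 genes followed here, blue points the other genes of the lists, the grey band the middle 50% of all genes tested and the line their median. Tcim (-0.99) lay lowest in its list and Fzd4 (-0.53) lowest among the receptors, where 15 of the 16 blue points lay above 0.

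The 10 genes spanned a wide range of levels. Per kilobase of merged exons, Ctnnb1 was highest (72.7 CPM per kb as the mean of the 8 libraries), followed by Tcim (36.9), Fzd4 (17.4), Cby1 (12.9), Sfrp1 (8.41), Gsk3b (7.66), Lrp6 (5.89), Apc (4.70), Tcf7l2 (1.73) and Axin2 (0.908). Ctnnb1 lay above Tcim, and Tcim above Fzd4, in 8 of 8 libraries. Neighbours in this order were not separated everywhere, since Fzd4 lay above Cby1 in 6 of 8 libraries, Sfrp1 above Gsk3b in 5, Gsk3b above Lrp6 in 7 and Tcf7l2 above Axin2 in 7. Merged exons cover all annotated transcripts, 22 for Tcf7l2 and 1 for Tcim, so a level per length depends on how many are annotated. Even with DIZE, Tcim (24.7 ± 1.72 CPM per kb) remained the second highest of the 10.

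**Figure D4:**
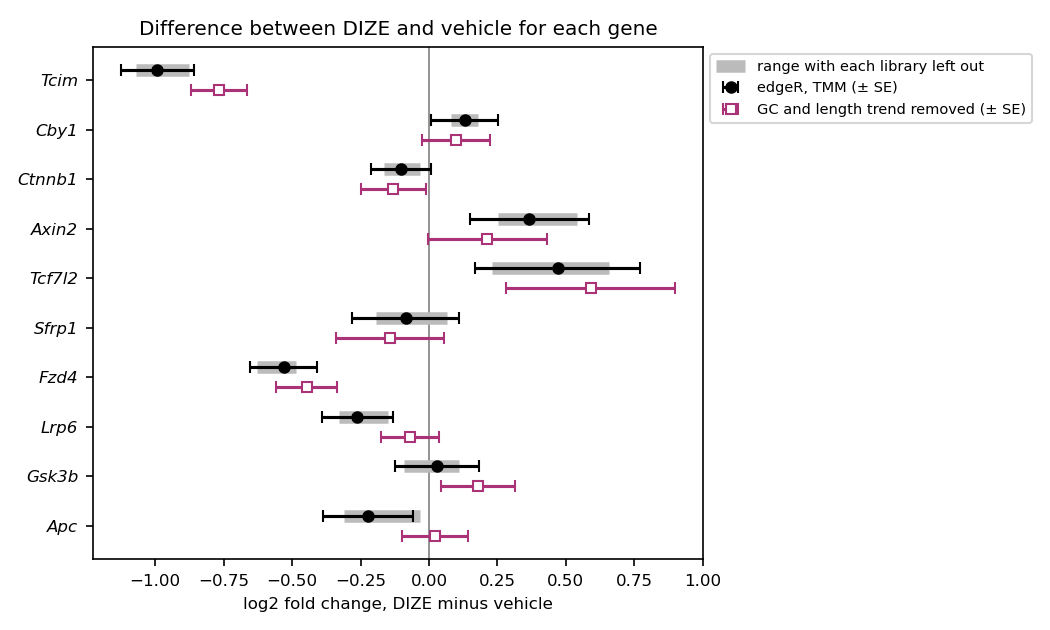
Log2 fold change of the 10 genes, DIZE minus vehicle. Black points are edgeR values with SE, grey bars the range with each library left out, and open squares the values with SE with the GC and length trend removed. Tcim lay lowest (-0.99, and -0.77 with the trend removed), Fzd4 next (-0.53 and -0.45), and Apc moved from -0.22 to 0.022.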

How the data were processed

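RNA from 8 mouse heart samples was sequenced as poly(A)-selected, stranded libraries in read pairs, per the labels' protocols. Alignment and counting tools named in the submitters' processing notes are STAR 2.7.3 and HTSeq 0.6.1p1. These notes also list mm10, edgeR and R 4.1. Annotation release and strand setting were not given in the sources used here. As deposited, the authors' values are raw counts (whole numbers for 55487 Ensembl genes, 8 columns), with 0 columns from other samples. Symbols matched 55141 IDs. Positions, lengths and GC content came from GENCODE M21 on GRCm38. No 2 libraries agreed within sampling noise (smallest chi-square per degree of freedom 5.06).

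Genes were filtered with filterByExpr (minimum count 10, minimum total 15), scaled by TMM and tested with edgeR 4.0.16 (quasi-likelihood, robust, two-sided, R 4.3.3), without covariates, with Benjamini-Hochberg adjustment at 0.05 over 13648 genes. SE is the log2 fold change divided by the square root of the F statistic. DESeq2 1.42.0, limma-voom (limma 3.58.1), other scalings and filters, blocks by title form (whether a title holds the letters db) and title number, removal of GC and length trends by library-wise splines, and leaving out each library were the alternatives.

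The members and lists were chosen with earlier results of these data known. The 10 members are always named, then in each Wnt list up to 3 genes with the smallest unadjusted p (mean at least 1 CPM), and the 5 genes most correlated with Tcim (mean at least 5 CPM). Fzd6, Gsk3a, Tcf7l1, Tcf7, Adam9, Htra4 and genes named for few reads or by a call under another setting were chosen after their values were seen.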

Additional observations from a re-analysis of the deposited data

Results flagged for a closer look

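In 2 of the 20 groups of 4 libraries examined (10 genes in vehicle and in DIZE), 1 library lay far from the others, and chance gives about 1 in 20. Cby1 was at 18.29 CPM in DIZE 3, against 15.92 to 15.99 CPM in the other 3 DIZE libraries. Axin2 was at 6.84 CPM in DIZE 2, against 5.17 to 5.36 CPM in the other 3, a difference of few reads. The gap to the nearest library was 0.969 and 0.888 of the whole range of the group, above the critical value of Dixon's test for 4 samples.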

How the results depend on the processing

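The number of genes past the threshold, the background for the 10 genes, depended on the processing: 5 by edgeR as reported, 606 by DESeq2 (263 higher and 343 lower), 386 with no filter on low counts (160 and 226), 43 with the GC and length trend removed (24 and 19), 9 with title form as a block, 0 with scaling to library totals, and 0 to 240 with a library left out (240 without vehicle 2, 9 without vehicle 1, 0 without vehicle 4 or any DIZE library, 1 without vehicle 3). At an unadjusted p under 0.05 the libraries left out gave 1965 to 3151 genes. Deviations from the group means correlated between -0.142 and 0.0156 for libraries with the same number in the title. For libraries with different numbers the range was -0.22 to 0.139. These values cannot tell whether the numbers pair the samples, since number 4 occurs more than once in each group. With the title number as a replicate block 0 genes passed (1938 at an unadjusted p under 0.05), and 1 with the replicate block and the GC and length trend removed together. In these blocks vehicle 4 (number 6) and DIZE 3 (number 3) each stood alone and added nothing to the contrast. Number 4 was shared by vehicle 2, vehicle 3, DIZE 2 and DIZE 4. The blocked fits thus rest on fewer libraries than the others. Of the other Wnt genes, DESeq2 called 5 higher and 2 lower, no filter gave 1 higher and 3 lower (Myc, and Usp34, Ccnd1 and Sfrp4), and libraries left out gave 0 to 2 lower (Usp34 and Ccnd1 without vehicle 2). Signs turned for Gsk3b with library totals (-0.033) and without vehicle 1 (-0.076) or DIZE 2 (range with a library left out -0.093 to 0.11), for Sfrp1 without vehicle 1 (0.065) or DIZE 2 (0.050; range -0.19 to 0.065), and for Apc with the GC and length trend removed (0.022). Within the titles that hold db and the others, log2 was 0.12 and -0.51 for Apc, 0.22 and -0.17 for Gsk3b, and -0.35 and 0.18 for Sfrp1. The cause was not tested. Tcim had log2 -0.72 with the replicate block and GC and length trend removed together, and -0.92 and -1.01 within the 2 title forms. Of the 190 values of the 10 genes under alternatives, 178 kept their direction and side of the threshold or stayed within the spread between replicates. This rule is lenient, since the 9 other genes did not pass by edgeR as reported. Lrp6, for example, was counted as kept when it moved from -0.26 to -0.068 with the GC and length trend removed. Axin2 rests on 24 to 59 reads per library.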
